A study of Mus musculus with 49 samples.

Results

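The cytosolic ribosomal protein genes are the genes for the protein subunits of the ribosome in the cytoplasm. They were taken from the count table by symbol (Rpl or Rps followed by a number and at most the letter a, l or x, and Rplp0, Rplp1, Rplp2 and Rpsa), and 3 of 83 symbols that match (Rps4l, Rpl32l and Rpl6l) were left out as pseudogenes. The 80 members, 49 of the large subunit and 31 of the small subunit, are part of a table of 52636 genes. The libraries came from the nucleus accumbens (NAc) of C57BL/6J mice, each sample from a different animal, with medium spiny neurons (MSNs) marked by expression of the dopamine receptor gene Drd1 (D1-MSNs) or Drd2 (D2-MSNs).

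D1- and D2-MSNs were collected by 3 methods, which give the groups compared here. For nuclear-FACS, GFP-labelled nuclei of heterozygous male mice carrying Thy1-loxPSTOPloxP-EGFP-F and either Drd1-cre (6 libraries) or Drd2-cre (5 libraries) were sorted from frozen tissue. For whole cell-FACS, cells of heterozygous male mice with a fluorophore in the cytoplasm, driven by the Drd1 (8 libraries) or Drd2 promoter (6 libraries), were sorted from fresh tissue digested with papain. The sample titles name 8 D1 and 8 D2 whole cell samples and the series' design text 9 and 7, where the column names give 8 and 6 numbers, a repeat and a further lane. For RiboTag, ribosomes were immunoprecipitated from fresh tissue of Drd1-cre or Drd2-cre mice crossed to Rpl22-loxPexon4loxP-exon4-HA, in which Cre adds an HA tag to the member Rpl22. There were 6 D1 and 6 D2 RiboTag libraries labelled male, and 5 D1 and 5 D2 labelled female. The labels name no treatment for any group. A label or tag follows the Cre driver or promoter, so that it marks the cells in which that driver is active. The comparisons ask how far the members differ between D1- and D2-MSNs within a method, and between methods within a cell type.

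A ribosome carries 1 copy of most ribosomal proteins, and the genes for them are transcribed in nearly every cell, with short, stable and abundant mRNAs. Their mRNAs share a tract of pyrimidines at the 5′ end, the 5′ terminal oligopyrimidine (TOP) motif, through which mTOR signalling and La-related protein 1 (Larp1) control how many ribosomes they carry. In neurons they are found in the cell body and also in dendrites and axons. Introns of many of these genes hold small nucleolar RNAs (snoRNAs), which guide the modification of ribosomal RNA and stay in the nucleus after the intron is removed.

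The annotated start sites show the tract beside members that lack it at that place. RefSeq promoter windows (GRCm38.p6) were found for 60 of the 80 members, by symbol. A tract, defined as a C followed by at least 4 bases that are each C or T, on the strand of the gene and with its C within 5 bases of the annotated start, was present in 28 of the 60 (46.7%). It was present in 21.2% of the 27025 symbols with a window. A match describes these letters only. The sequences below run from 20 bases before the start to 20 bases from the start on, with the tract in capitals, and were chosen for the members that the comparisons turn on. They are Rpl13a (chr7:45128726-45128765, minus strand), Rplp2 (chr7:141447631-141447670, plus strand), Rps6 (chr4:86857348-86857387, minus strand), Rpl14 (chr9:120571497-120571536, plus strand), Rpsa (chr9:120127746-120127785, plus strand), Rps3 (chr7:99483690-99483729, minus strand) and Rpl22 (chr4:152324416-152324455 and chr4:152325706-152325745, plus strand, with a pair of annotated starts).
Rpl13a: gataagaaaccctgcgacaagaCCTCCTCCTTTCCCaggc
Rplp2: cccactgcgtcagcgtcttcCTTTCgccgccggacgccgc
Rps6: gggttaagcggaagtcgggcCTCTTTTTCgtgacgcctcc
Rpl14: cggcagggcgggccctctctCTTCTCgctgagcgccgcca
Rpsa: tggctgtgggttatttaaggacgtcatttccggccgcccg
Rps3: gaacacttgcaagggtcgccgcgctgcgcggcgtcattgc
Rpl22: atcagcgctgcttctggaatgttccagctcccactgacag
Rpl22: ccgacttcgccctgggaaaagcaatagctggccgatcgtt
The tract lies at the start of Rpl13a, Rplp2, Rps6 and Rpl14, and no such tract lies within 5 bases of the annotated starts of Rpsa, Rps3 and Rpl22.

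Libraries differed in ways that bear on every value below. A whole cell library held 10476223 to 27965357 counts, a nuclear library 3701255 to 68777008 and a RiboTag library 24076888 to 45641342. A set of 3 genes that hold ribosomal RNA sequence (Gm42418 and AY036118 among them) took 70.1 to 75.9% of the counts in RiboTag libraries, and 55.9, 49.1 and 52.8% in nuclear D1 numbers 1, 5 and 6. In these 3 nuclear libraries and in whole cell D2 numbers 2 and 6, protein-coding genes held under 62% of the counts. Receptor genes of the olfactory and vomeronasal organs, which MSNs should not express, give by their counts per length a background of 32.5 to 52.3% of the counts in nuclear D2, 0.578 to 22.2% in nuclear D1, 8.35 to 52.5% in whole cell and at most 0.0629% in RiboTag libraries. The labels were checked against 5 markers of each cell type. All 5 D1 and all 5 D2 markers had the higher median in their own type among RiboTag libraries, and likewise among whole cell libraries. Among the nuclear libraries this held for 4 of 5 D1 markers but for 1 of 5 D2 markers (Drd2), so that the nuclear libraries are named by their labels. In 6 of 12 RiboTag libraries labelled male, Xist exceeded the Y-linked genes. Several results below are also given without the doubted libraries. For most single members named such values are not given, although far fewer members were called in nuclear libraries without them.

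The members took a small share of the counts in every library. The authors left out fragments that align to more than 1 place, and 285 genes of the table are pseudogenes named after an Rpl or Rps gene, so that the counts hold only the fragments that tell a member from its copies. Of all counts, the members took 0.0616 to 0.238% in whole cell D1, 0.0398 to 0.185% in whole cell D2, 0.0413 to 0.115% in nuclear D1, 0.0298 to 0.0377% in nuclear D2 and 0.0365 to 0.0462% in RiboTag libraries. The share of protein-coding counts does not depend on ribosomal RNA. It was 0.224, 0.0966, 0.0570, 0.0689, 0.271 and 0.198% in nuclear D1 numbers 1 to 6, and 0.0397, 0.0487, 0.0463, 0.0402 and 0.0390% in nuclear D2 numbers 1, 2, 3, 5 and 7. The nuclear groups did not overlap, and the highest nuclear D1 shares were those of numbers 1, 5 and 6. Whole cell D1 libraries ranged from 0.0723 to 0.285% with a median of 0.163%, and whole cell D2 libraries from 0.0655 to 0.214% with a median of 0.0846%, so that these groups overlapped. RiboTag libraries lay within 0.157 and 0.196%, inside the range of the whole cell D1 libraries. The plot of members' share by library shows the narrow RiboTag groups beside the wide FACS groups. Background by gene span made up 24.0 to 44.3% of the members' own counts in nuclear D2 and 0.191 to 14.9% in nuclear D1 libraries. Its part in this difference between shares was not tested. In bulk libraries, fewer cells of a type and less RNA per cell cannot be told apart.

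**Figure D1:**
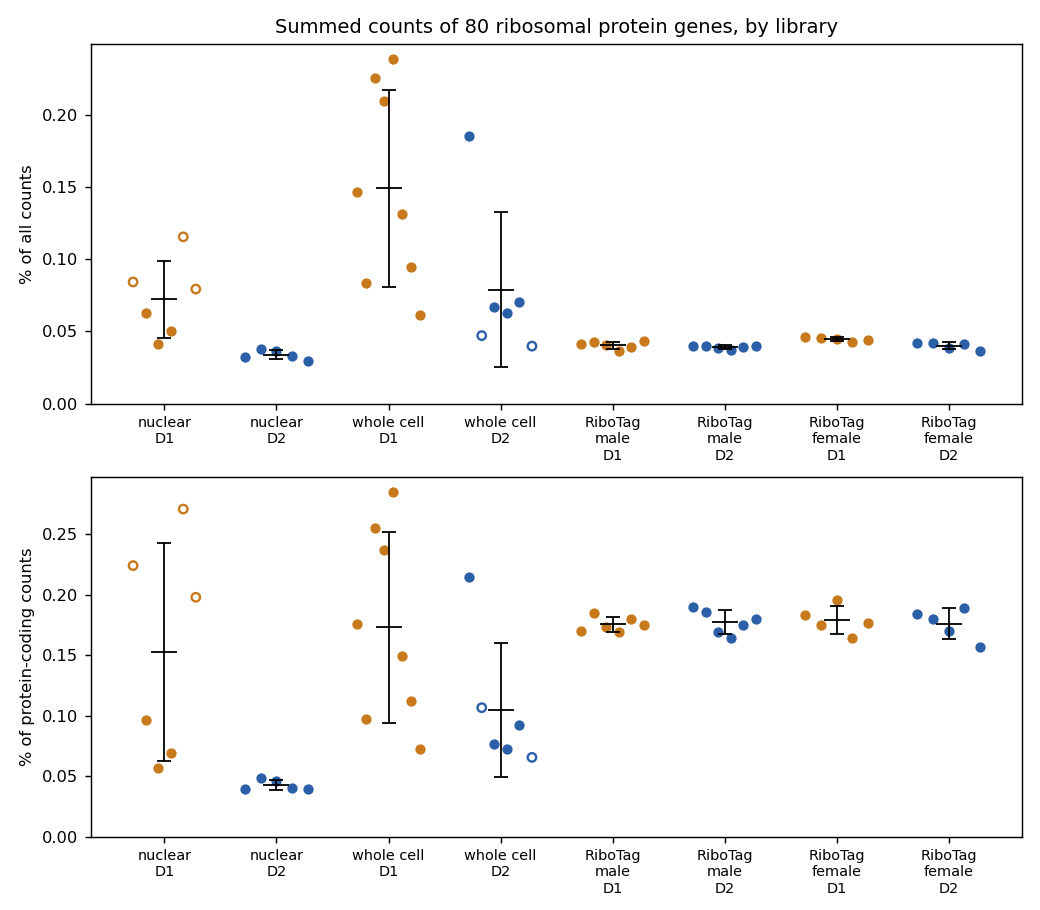
Share of protein-coding counts taken by the 80 ribosomal protein genes (percent, vertical axis) in each library, by method and cell type, with D1 in orange and D2 in blue. Each point is 1 library, open circles are nuclear and whole cell libraries with under 62% protein-coding counts, and black bars give the mean and SD. Nuclear D2 libraries sit between 0.0390 and 0.0487%, below all nuclear D1 libraries, and RiboTag libraries between 0.157 and 0.196%.

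Levels per exon length ranked the members similarly in the 3 methods. In this paragraph, a level is the mean of the D1 and D2 means of normalised CPM (counts scaled to a fixed library size) per kilobase of summed exons, with the libraries labelled male for RiboTag. The highest nuclear levels were those of Rplp1 (72.3), Rpl19 (40.8), Rps3 (37.0), Rpl26 (33.2) and Rpl23 (29.3), the same 5 as in nuclear D1 alone. In nuclear D2 alone, Rpl11 (17.1) and Rpl38 (15.8), named after their values were seen, were the highest, while Rplp1 stood at 133 in D1 and 11.9 in D2. In whole cell libraries they were those of Rpl4 (57.6), Rpl26 (53.8), Rpl13a (45.6), Rpl19 (42.3) and Rplp1 (42.0), and in RiboTag libraries those of Rpl19 (19.0), Rplp1 (15.3), Rps23 (10.7), Rpl4 (10.6) and Rpl26 (9.81). Rpl19, Rpl26 and Rplp1, of which Rplp1 is an acidic protein of the ribosomal stalk, stood among the 5 highest in every method. Levels set across methods come from separate normalisations and are compared here by rank only. Spearman's rho across the 80 genes was 0.84 between nuclear and whole cell, 0.87 between nuclear and RiboTag and 0.85 between whole cell and RiboTag libraries, as a description of genes that share libraries and length. The lowest were Rpl10l, Rps20, Rps19, Rpl35a and Rpl18 in nuclear, Rpl10l, Rpl39l, Rps27l, Rpl18 and Rps20 in whole cell, and Rpl10l, Rpl39l, Rpl3l, Rps27l and Rps12 in RiboTag libraries. By library, Rpl22 ranked 15 to 25 of 80 in nuclear D2 and 27 to 56 in nuclear D1, with no overlap, 26 to 53 in whole cell and 51 to 63 in RiboTag libraries. These levels divide counts over the whole gene by the length of its exons, so that intron and background counts enter them. Rpl11 spans 25164 bases with 2697 in exons, and Rpl22 spans 8330 with 2911. Background was higher in nuclear D2 than in nuclear D1 libraries, and its part in these ranks was not tested. The coefficient of variation of a member between libraries of a group had a median of 9.08 to 13.3% in the RiboTag groups, 26.7% in nuclear D2, 46.9% in whole cell D1, 50.7% in whole cell D2 and 69.8% in nuclear D1. The RiboTag groups thus allow the smallest differences to be seen.

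Among nuclear libraries, members of both subunits were lower in those labelled D2 than in those labelled D1. Of the 75 members that passed the filters on low values, 38 were called lower in D2 and 0 higher (edgeR's quasi-likelihood test, adjusted p up to 0.05, a log2 fold change beyond 0.38 in either direction, and the study's limits on mean count and standard error). Of all 9228 genes tested, 12.2% were called, 9.06% as lower. The median log2 fold change (D2 minus D1) of the members was -1.58, beside 0.03 for all genes tested. 27 of 45 large subunit genes and 11 of 30 small subunit genes were called. In the next sentences, values are normalised CPM, scaled within the nuclear libraries.

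Rpl13a, a large subunit protein whose introns hold Snord32a, Snord33, Snord34 and Snord35a, shared the smallest adjusted p of the members with Rpsa, Rps3 and Rpl5. It stood at 18.0 to 162 CPM with a median of 93.8 in D1, and at 11.3, 12.3, 14.2, 13.9 and 8.91 CPM in D2 numbers 1, 2, 3, 5 and 7. All D2 libraries lay below all D1 libraries, and D1 numbers 1, 5 and 6 were the highest. The log2 fold change was -2.81 (SE 0.52, adjusted p = 0.00923). Rpsa, the 40S subunit protein that also serves as a laminin receptor, stood at 30.4 to 225 CPM with a median of 108 in D1 and at 15.1, 24.7, 21.9, 14.5 and 15.9 CPM in D2. The groups did not overlap, and the log2 fold change was -2.68 (SE 0.45, adjusted p = 0.00923). Rps3, which lies at the entry of the mRNA channel, ranged from 103 to 485 CPM with a median of 284 in D1 and was 46.9, 111, 71.1, 42.1 and 23.5 CPM in D2. D2 number 2 exceeded the lowest D1 library, and the log2 fold change was -2.18 (SE 0.41, adjusted p = 0.00923). The snoRNA genes Snord15a and Snord15b equalled 90.1% of the Rps3 counts in D1 and 85.8% in D2, and without them the value was -1.19 (adjusted p = 0.173), which is not called.

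Further called members included Rpl5 and Rpl23 of the large subunit, with log2 fold changes of -1.99 and -2.12. Rpl5 binds 5S rRNA and, when free, the ubiquitin ligase Mdm2, and its gene overlaps Fam69a, whose reads cannot be told apart from those of Rpl5 in counts made without strand. Rplp2, a stalk protein, fell by 2.31 (SE 0.47, adjusted p = 0.00968), from 10.8 to 67.5 CPM in D1 to 7.38, 7.35, 9.31, 6.38 and 6.36 CPM in D2, with no overlap. Rps2 (-2.12), Rpl8 (-2.33), Rpl4 (-2.01), Rpl21 (-1.83), Rps6 (-2.06) and Rpl26 (-2.61) completed the 12 with the smallest adjusted p, of at most 0.0134. Rps6 is the substrate of the S6 kinases. No snoRNA lies inside its gene.

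**Figure D2:**
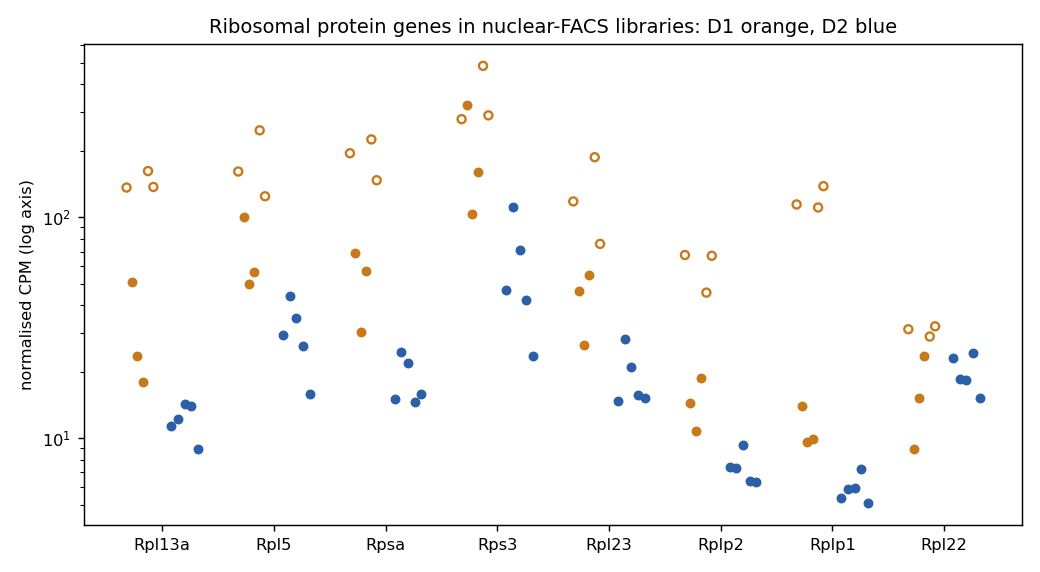
Normalised CPM (log axis) of 8 ribosomal protein genes in each nuclear library, D1 in orange and D2 in blue, with open circles for D1 numbers 1, 5 and 6, whose protein-coding share is under 62%. Rpl13a, Rpsa and Rplp2 show no overlap between groups, while Rpl22 ranged from 8.93 to 32.1 in D1 and from 15.3 to 24.3 in D2.

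The 2 groups of nuclear libraries also differed in other measures. Marker sums in CPM of protein-coding counts for 5 endothelial genes ranged from 19.7 to 183 in nuclear D1 and from 200.3 to 315 in nuclear D2, and those of 3 cholinergic interneuron genes from 14.8 to 49.6 and from 50.6 to 79.4, with none of these genes at 0 in either group. Sums of microglia (114 to 234 and 220.5 to 268), astrocyte, oligodendrocyte and GABA interneuron genes overlapped. Their part in the members' difference was not tested. Without D1 numbers 1, 5 and 6, 5 of 70 members were called lower, the median log2 fold change was -0.49 and 5.58% of all genes were called. Without the libraries whose background was over 35%, no member was called by edgeR, the median was -1.57, Rpl13a stood at -2.76 (adjusted p = 0.136) and 0.0392% of all genes were called. Leaving out a single library gave 25 calls without D1 number 5, 16, 22 and 22 without D2 numbers 1, 2 and 3, 12 without D2 number 5 and 10 without D2 number 7. With library totals in place of TMM scaling, 29 members were lower and 1 higher.

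In whole cell libraries the members were also lower in D2-MSNs by median, but few passed the test. Of 74 members tested, 2 were called lower and 0 higher (1.06% of all genes tested were called, 0.703% as lower), and 40 had an unadjusted p under 0.05. Their median log2 fold change was -0.83, beside -0.09 for all genes. Rpl14, a large subunit protein, stood at 19.0 to 90.2 CPM with a median of 48.4 in D1 and at 16.6 to 22.1 CPM in D2, scaled within the whole cell libraries. The groups overlapped only through D1 number 8, the lowest D1 library, and the log2 fold change was -1.43 (SE 0.28, adjusted p = 0.0183). Rpl37a, a zinc finger protein of the large subunit, stood at 6.81 to 32.9 CPM with a median of 12.3 in D1 and at 2.22 to 6.85 CPM with a median of 4.43 in D2, where D1 number 8 was again the only D1 library within the D2 range. Its log2 fold change was -1.80 (SE 0.41, adjusted p = 0.0381).

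The number of whole cell calls moved with the setting, always towards lower in D2. It was 10 with DESeq2 and 0 without the FPKM filter, 7 with the repeat column of D1 number 1 as a library of its own, and 11 with the lanes of D2 number 3 kept apart. Without a single library it was 0 (D1 numbers 3 and 4), 1 (D1 numbers 1, 5 and 7 and D2 numbers 3, 4 and 6), 4 (D1 number 2 and D2 number 2), 8 (D2 number 1) or 19 (D1 number 8). Without the 2 libraries of low protein-coding share, 1 member was called, and without those with a background over 35%, 13 were.

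In RiboTag libraries, D1- and D2-MSNs differed little in any member. Of 71 members tested in libraries labelled male, 0 were called in either direction (2.56% of all genes tested), 5 had an unadjusted p under 0.05, and DESeq2 also called 0. The log2 fold changes ran from -0.29 to 0.16, all 71 within 0.38, and for 64 of them the 95% interval lay within 0.38. In libraries labelled female, 0 of 72 members were called by either tool (1.90% of all genes tested by edgeR), 4 had an unadjusted p under 0.05, the log2 fold changes ran from -0.36 to 0.28 and the interval lay within 0.38 for 50. Few genes of the table were called in these comparisons (174 and 134), so that 0 calls do not set the members apart from other genes.

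A pair of members passed the adjusted p alone in libraries labelled male, and are named for that after their values were seen. Of all genes tested, 4.08% passed it as higher and 5.22% as lower. Rpl3, the protein at the peptidyl transferase centre, was 13.6 to 15.7 CPM with a median of 14.5 in D1 and 10.4 to 13.3 CPM with a median of 11.8 in D2, with no overlap (log2 fold change -0.29, adjusted p = 0.00165). Rpl19 was 17.8 to 19.1 CPM with a median of 18.3 in D1 and 19.3 to 22.7 CPM with a median of 20.1 in D2, again with no overlap (0.16, adjusted p = 0.0420). In libraries labelled female, Rpl3 was 14.1 to 18.0 CPM in D1 and 12.9 to 17.9 CPM in D2, and the groups overlapped. Rpl19 was 18.5 to 22.3 CPM in D1 and 19.8 to 23.3 CPM in D2 there, also with overlap. The gene of Rpl3 overlaps Syngr1, whose reads there cannot be told apart from those of Rpl3 in counts made without strand. The comparison of RiboTag libraries labelled female with those labelled male called 0 of 72 members with edgeR and with DESeq2 (0.0697% of all genes tested by edgeR), with 6 at an unadjusted p under 0.05. Xist exceeded the Y-linked genes in 6 of the 12 labelled male, so that this compares labels and cannot decide on a difference by sex.

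**Figure D3:**
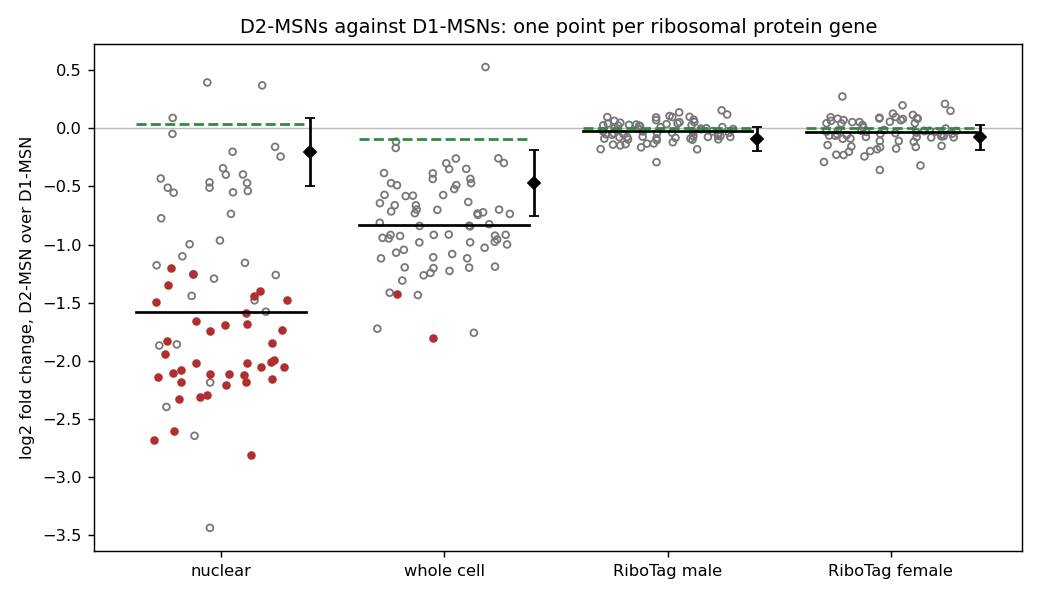
Log2 fold change (D2 minus D1) of each tested ribosomal protein gene in nuclear, whole cell, RiboTag male and RiboTag female libraries. Each point is 1 gene, red where called and grey where not, with the members' median as a black line, the median of all genes tested as a green dashed line, and Rpl22 with its SE as a black diamond. Most nuclear points lie below 0 around a median of -1.58, and RiboTag points lie between -0.36 and 0.28.

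The stalk proteins Rplp0, Rplp1 and Rplp2, which recruit translation factors to the ribosome, were lower in nuclear D2 by median. In nuclear libraries Rplp1 ranged from 9.65 to 138 CPM with a median of 62.4 in D1 and was 5.34, 5.92, 5.96, 7.27 and 5.09 CPM in D2, with no overlap. Its log2 fold change of -3.44 (SE 0.72, adjusted p = 0.0101) was the lowest of the members, but its standard error was too large for the study's limit, so that it was not called. Rplp0 was 5.51 to 42.6 CPM in D1 and 5.67 to 7.73 CPM in D2, and its log2 fold change of -1.44 had an adjusted p of 0.0568. In whole cell libraries the log2 fold changes were -1.07 for Rplp0 (adjusted p = 0.0776), -1.41 for Rplp1 (adjusted p = 0.111) and -0.70 for Rplp2 (adjusted p = 0.377). In RiboTag libraries labelled male they were 0.02, -0.13 and 0.14, and in those labelled female -0.19, 0.01 and 0.08.

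The tissue-restricted paralogs stood apart from the rest by method. Rpl3l is the muscle form of Rpl3, and Rpl10l and Rpl39l are forms known from the testis. Rpl10l had 0 counts in each of the 12 RiboTag libraries labelled male and the 10 labelled female, which allows up to 0.0657 to 0.125 CPM by the limit of 3 counts of a library's total. In nuclear D2 libraries it had 0 to 34 counts. Rpl39l had 1 count over the RiboTag D1 libraries labelled male and 0 in the other RiboTag groups, 5 to 27 counts per library in whole cell D1 and 3 to 113 in nuclear D2. Rpl3l had 0 to 2 counts per library in RiboTag male D1 and 23 to 106 in whole cell D1. Background was higher in whole cell than in RiboTag libraries, and its part in these counts was not tested. In nuclear libraries Rpl3l stood at 0 to 7.81 CPM in D1 and at 8.27 to 18.9 CPM in D2, higher in D2 with no overlap, and the D2 libraries are those with the higher background, whose part in this was not tested. Rpl3l, Rpl10l and Rpl39l did not pass the nuclear filter on low values and have no test there. Rps27l, a stress form of Rps27, stood at 0 to 8.86 CPM in nuclear D1 and 0 to 4.32 CPM in nuclear D2 (log2 fold change 0.09, adjusted p = 0.959). The limits from a count of 0 cover counting error only.

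Fragments of snoRNAs inside the members added to the nuclear counts. The 29 members with at least 1 snoRNA inside hold 56 of them, and a fragment that overlaps both was counted for both. The counts of the snoRNA genes equalled 11.3 to 40.8% of all member counts in nuclear D1, 7.71 to 22.7% in nuclear D2, 1.29 to 2.05% in whole cell D1, 0.670 to 10.1% in whole cell D2 and at most 0.144% in RiboTag libraries. Rps3 is given above. Summed over nuclear D1 and nuclear D2 libraries, the share was 62.8 and 64.1% for Rpl23, 43.0 and 34.2% for Rpl5 and 32.1 and 41.2% for Rpsa. Of members with a snoRNA inside, 20 of 29 were called lower in nuclear D2, with a median log2 fold change of -1.75, and of those without, 18 of 46 with a median of -1.40. With the snoRNA counts subtracted, 36 of 75 members were called lower and 0 higher. Of members with the pyrimidine tract, 12 of 28 were called lower in nuclear D2, and of those without it 15 of 28.

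Under TMM scaling, nuclear libraries labelled D2 held less of many members than whole cell libraries labelled D2. Among libraries labelled D1, the share of members called higher was near that of all genes. These contrasts come from a model over all libraries labelled male, in which 79 members passed the filter and the call was an adjusted p of at most 0.05 with an absolute log2 difference over 0.38, and RiboTag and nuclear contrasts share the same whole cell libraries. In D2-MSNs, 50 members were called lower in nuclear libraries and 1 higher (20.2% of all 29901 genes tested were called, 16.5% as lower and 3.68% as higher), with a median log2 difference of -1.54 beside 0.14 for all genes. The lowest p values were those of Rplp2 (-3.78), Rpl8 (-3.26), Rpl13a (-3.18), Rps9 (-3.01), Rpl4 (-2.87), Rpl10a (-2.48), Rpl15 (-2.27), Rps15 (-3.03), Rpl36 (-3.28), Rpl24 (-2.26), Rpsa (-2.51) and Rpl36a (-3.12), all with an adjusted p of at most 0.000381. The exception was Rpl39l (3.34, SE 0.92, adjusted p = 0.00796), at 0 counts in 4 of 6 whole cell D2 libraries. Background made up 32.5 to 52.3% of the counts in nuclear D2 libraries and 8.35 to 36.8% in whole cell D2 libraries.

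In D1-MSNs, 11 members (13.9%) were called higher in nuclear libraries and 0 lower. Of all genes tested, 19.1% were called, 10.7% as higher, a share near that of the members. The median was 0.30 for the members and -0.32 for all genes. Among the members called were Rps3 (2.49), Rpl21 (1.84), Rpl23 (1.57), Rps10 (0.92), Rpl29 (1.82 relative to the median of all genes), Rps4x (1.11), Rplp1 (1.58), Rps27 (1.81), Rpsa (1.22) and Rps6 (1.05). This direction rested on the libraries kept and the scaling. Without the 5 libraries of low protein-coding share, 28 members were lower and 1 higher, with a median of -0.99 beside -0.21. With library totals, 51 were lower and 1 higher. The share of all genes called is not given for these settings, so the counts describe the members' calls only. With snoRNA counts subtracted, Rps3 stood at -0.98 (adjusted p = 0.103) and Rpl23 at 0.00 (adjusted p = 0.996).

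RiboTag libraries held more of most members than whole cell libraries under TMM scaling. In D1-MSNs, 56 of 79 members were called higher in RiboTag and 3 lower, where 80.5% of all genes tested were called, 21.3% as higher and 59.3% as lower. In D2-MSNs, 72 were called higher and 1 lower, with 81.2% of all genes called, 21.9% as higher and 59.3% as lower. The members' median log2 difference was 1.42 in D1 and 2.06 in D2, beside -1.86 and -1.87 for all genes, so that relative to all genes the members lay higher still. This scaling sets the sign. With library totals, 74 members in D1 were lower and 0 higher, with a median of -2.14 beside -5.45 for all genes, and in D2 57 were lower and 3 higher, with -1.24 beside -5.11. In both scalings the members' median lay above that of all genes, by over 3 on the log2 scale. As a share of protein-coding counts, which needs no scaling, RiboTag libraries labelled male held 0.164 to 0.190% and whole cell libraries 0.0655 to 0.285%.

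Rpl21, a large subunit protein, had the lowest p in both cell types. Scaled over all libraries labelled male, it stood at 2.23 to 8.45 CPM with a median of 5.39 in whole cell D1 and at 49.4 to 59.3 CPM with a median of 57.5 in RiboTag D1, with no overlap. The log2 difference was 3.45 (SE 0.36), or 5.31 relative to the median of all genes. In D2 it stood at 1.23 to 5.01 and 48.7 to 57.2 CPM (4.33, SE 0.42). Rps6 also was higher in RiboTag, with 1.55 to 9.67 CPM with a median of 7.30 in whole cell D1 and a median of 58.9 CPM in RiboTag D1 (3.18, SE 0.38) and 2.23 to 6.23 against 56.9 to 65.6 CPM in D2 (4.03, SE 0.45). In D1, other members with a low p were Rpl7a (2.79), Rps4x (2.67), Rpl6 (2.47), Rpl19 (2.67), Rpl29 (3.33), Rps23 (2.97), Rpsa (2.63) and Rpl7 (2.53). In D2 they were Rps4x (3.92), Rpl19 (3.58), Rpl7a (3.28), Rpl6 (3.11), Rpl29 (4.29), Rpl17 (3.31), Rps26 (4.05) and Rps23 (4.03). Of these, Rps23 sits at the decoding centre and Rps4x is the X-linked form of Rps4.

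The members called lower in RiboTag were the low ones. In D1 they were Rpl3l (adjusted p = 2.74e-05) and Rpl39l (adjusted p = 0.00479), with the counts given above and no fold given for so few counts, and Rps12 (-1.02, SE 0.44, adjusted p = 0.0316), which had 4 to 12 counts per library in RiboTag D1. In D2 the member was Rpl3l (-2.54, SE 0.78, adjusted p = 0.0034). Background made up 8.35 to 52.5% of the counts in whole cell libraries and at most 0.0409% in RiboTag libraries labelled male. Its part in these calls was not tested. Without the 6 libraries whose Xist exceeds the Y-linked genes, the adjusted p of these 3 genes in D1 was 0.0509, 0.0829 and 0.524, and that of Rpl3l in D2 was 0.057.

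**Figure D4:**
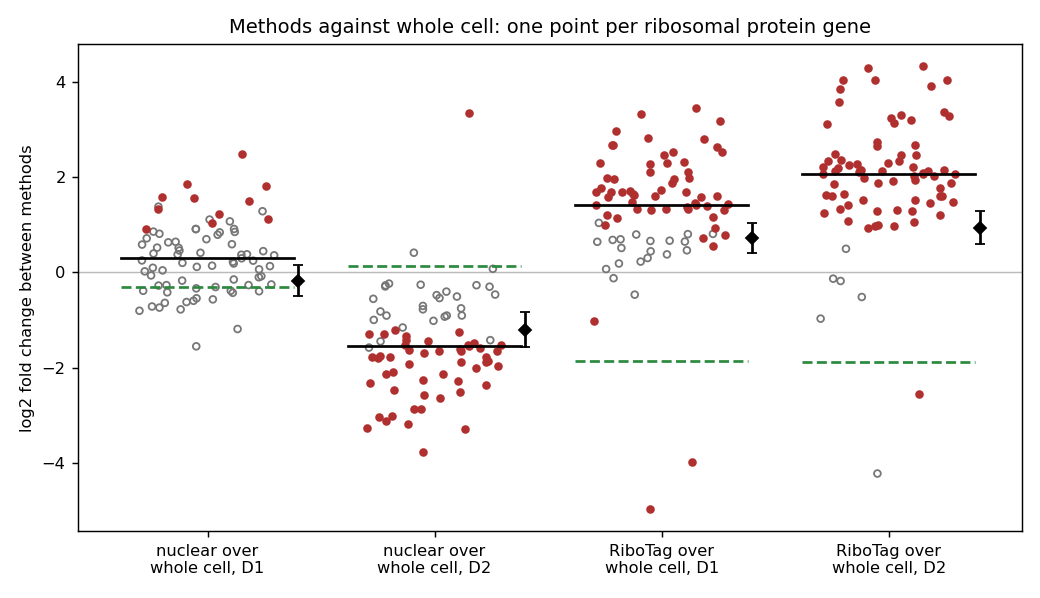
Log2 difference of each tested ribosomal protein gene between methods (nuclear or RiboTag minus whole cell) in D1 and in D2, scaled by TMM over all libraries labelled male. Each point is 1 gene, red where called and grey where not, with the members' median as a black line, the median of all genes as a green dashed line and Rpl22 with its SE as a black diamond. The members lie above the all-gene median of -1.86 and -1.87 in both RiboTag contrasts, and below that of 0.14 in the nuclear contrast of D2.

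The difference between libraries labelled D2 and D1 itself differed between nuclear and whole cell libraries. In the test of that difference, 48 members were called lower and 1 higher (21.9% of all genes tested were called, 15.8% as lower and 6.12% as higher), with a median of -2.04 beside 0.33 for all genes. Rpsa (-3.73, SE 0.65, adjusted p = 0.00021) had the lowest p, and Rpl39l (4.53, SE 1.26, adjusted p = 0.011) was the member called higher. The background of nuclear D2 libraries given above stands beside the value of Rpl39l here too. Without the 5 libraries of low protein-coding share, 7 were lower and 2 higher, and with library totals 4 were lower and 10 higher. For RiboTag against whole cell libraries, 0 members were called by edgeR or DESeq2 (0.120% of all genes tested by edgeR), 4 had an unadjusted p under 0.05, and the median was 0.64 beside 0.06.

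Rpl22, the protein that carries the HA tag in RiboTag mice, is a large subunit protein that also binds RNA outside the ribosome. Its gene (ENSMUSG00000028936) lies on the plus strand of chromosome 4, from 152325742 to 152334071 in GRCm38, and holds no snoRNA and no other gene. Rpl22 had 80 to 121 counts per library in RiboTag male D1, 58 to 133 in male D2, 84 to 106 in female D1, 76 to 122 in female D2, 129 to 507 in whole cell D1, 122 to 383 in whole cell D2, and in total 920 over nuclear D1 and 1456 over nuclear D2. In nuclear libraries Rpl22 was 8.93 to 32.1 CPM with a median of 26.2 in D1 and 23.1, 18.6, 18.3, 24.3 and 15.3 CPM in D2 (log2 fold change -0.20, SE 0.29, adjusted p = 0.662), and ranked 6 of 75 from the highest fold change. Without the FPKM filter the value was -1.42 (adjusted p = 0.0202).

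In whole cell libraries Rpl22 was 23.8 to 53.5 CPM with a median of 32.6 in D1 and 9.76 to 42.6 CPM with a median of 22.2 in D2, with overlap (-0.47, SE 0.28, adjusted p = 0.496). In RiboTag libraries labelled male it was 2.54 to 3.31 CPM with a median of 2.98 in D1 and 2.27 to 3.23 CPM with a median of 2.67 in D2 (-0.09, SE 0.10, adjusted p = 0.678), which ranked 58 of 71 from the highest fold change. In those labelled female it was 2.74 to 3.19 and 2.38 to 3.36 CPM (-0.08, SE 0.11, adjusted p = 0.818), at rank 51 of 72. The intervals of the RiboTag fold changes, -0.30 to 0.11 and -0.29 to 0.14, exclude a change beyond 0.38. Between methods, Rpl22 was called higher in RiboTag than in whole cell libraries in D1 (0.72, SE 0.32, adjusted p = 0.0376) and in D2 (0.94, SE 0.35, adjusted p = 0.0135). This direction rested on the scaling: with library totals Rpl22 was lower in RiboTag, at -2.86 in D1 (adjusted p = 2.22e-10) and -2.36 in D2 (adjusted p = 2.53e-08). Under TMM it ranked 59 and 72 of 79 members from the highest difference, and it was called lower in nuclear than in whole cell libraries in D2 (-1.21, SE 0.37, adjusted p = 0.0149).

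A ratio within a library is free of scaling between libraries. The log2 ratio of the Rpl22 count to the summed count of the other members was -7.26 to -6.98 with a median of -7.09 in RiboTag male D1, and -6.54 to -5.62 with a median of -6.04 in whole cell D1. In D2 it was -7.41 to -6.94 with a median of -7.20 in RiboTag male and -6.86 to -5.46 with a median of -5.73 in whole cell libraries. Neither pair of groups overlapped, and Rpl22 took the smaller share of the members' counts in RiboTag. Only the RiboTag mice are described as carrying the tagged Rpl22 allele. Method and Rpl22 genotype thus cannot be told apart when RiboTag and whole cell libraries are compared. The mean difference (RiboTag minus whole cell) was -1.05 in D1 (exact permutation test over libraries, two-sided, p = 0.000666, the smallest it can give, adjusted p = 0.00533 over 8 pairs of groups) and -1.31 in D2 (exact permutation p = 0.00216, the smallest it can give, adjusted p = 0.00866). The same ratio of each of 75 members placed Rpl22 at 64 in D1 and 69 in D2 from the highest difference, so that some members had lower differences. With all protein-coding counts as the denominator, the D2 difference was -0.40 (exact permutation, adjusted p = 0.456). Without the doubted libraries, which left 2 RiboTag libraries in D1 and 4 in each D2 group, the differences were -0.96 and -1.12 (exact permutation, adjusted p = 0.169 for both), and the groups still did not overlap.

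The nuclear ratios, compared between cell types, were -6.95, -7.21, -5.97, -5.48, -7.15 and -6.79 in D1 numbers 1 to 6 and -5.10, -5.53, -5.49, -5.12 and -5.49 in D2 numbers 1, 2, 3, 5 and 7. D1 number 4 lay inside the D2 range, and the other D1 libraries lay below it. The mean difference (D2 minus D1) was 1.25 (exact permutation p = 0.0173, adjusted p = 0.0462). Without any 1 of the 5 D2 libraries the adjusted p of the exact permutation test was 0.0762 to 0.102, and with snoRNA counts subtracted it was 0.0606. With all protein-coding counts as the denominator the difference was -0.37 (exact permutation, adjusted p = 0.381). Nuclear and whole cell ratios differed by 0.54 in D2 (exact permutation, adjusted p = 0.0866) and by -0.53 in D1 (adjusted p = 0.127), and D2 and D1 by 0.17, -0.08 and -0.06 in whole cell, RiboTag male and RiboTag female libraries (exact permutation, adjusted p of 0.47 to 0.54).

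**Figure D5:**
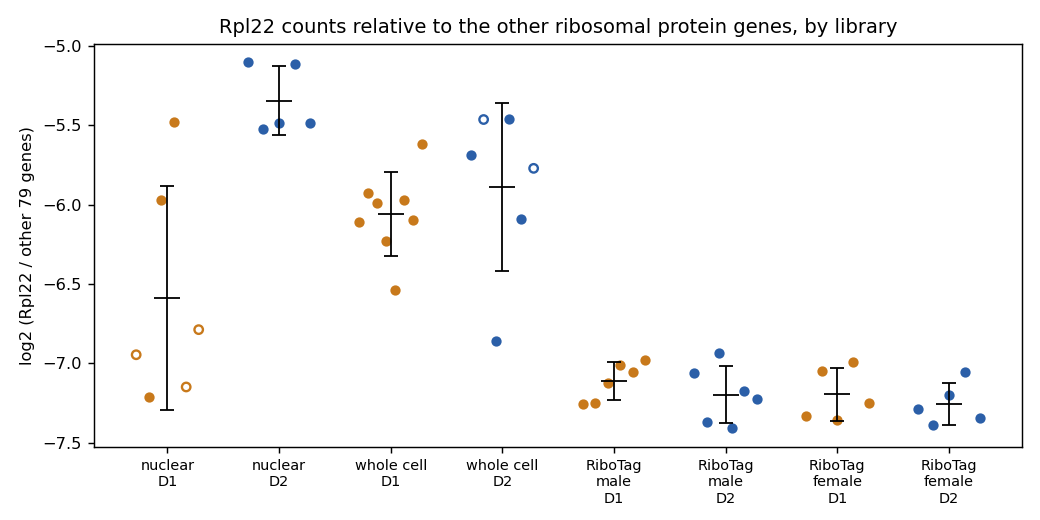
Log2 ratio of the Rpl22 count to the summed count of the other 79 ribosomal protein genes (vertical axis) in each library, by method and cell type, D1 in orange and D2 in blue. Points are libraries, open circles are nuclear and whole cell libraries with under 62% protein-coding counts, and black bars give the mean and SD. RiboTag libraries sit between -7.41 and -6.94, below all whole cell libraries, and nuclear D2 libraries between -5.53 and -5.10.

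Other genes of the pathway were counted by list. The 6 ribosomal genes outside the symbol rule (Fau, Rpl22l1, Rpl7l1, Rpl36al and Rack1 among them) behaved like the members in part. In nuclear libraries 0 of 6 were called between D2 and D1 with a median of -1.01, and in the contrast of nuclear with whole cell D2 all 6 were called lower with a median of -2.20. Of mitochondrial ribosomal proteins, 0 of 40 were called in nuclear D2 against D1 with a median of 0.03, and of ribosome biogenesis factors 3 of 17 were called lower and 2 higher with a median of 0.04. In the contrast of RiboTag with whole cell D1, 42 of 75 mitochondrial ribosomal proteins were called higher and 6 lower, with a median of 0.66, and 23 of 40 biogenesis factors higher and 3 lower, with a median of 0.58. Of all genes tested, 21.3% were called higher and 59.3% lower there, with a median of -1.86, and the median of the cytosolic members was 1.42. In RiboTag libraries of either sex label, 0 genes of these lists were called between D2 and D1.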

How the data were processed

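RNA-seq was made from NAc of mice by nuclear-FACS, whole cell-FACS and RiboTag. The authors deposited 1 table of counts per gene (read pairs aligned with HISAT2 2.0.5 and counted with featureCounts over Ensembl GRCm38.90 gene bodies, without strand, multi-mapping pairs left out, a pair that overlaps several genes counted for each). Its 49 columns were joined into 47 libraries: a column named as a repeat of whole cell D1 number 1 and the 2 lanes of whole cell D2 number 3 were summed, although the titles and the series' design text count more whole cell samples, so these columns may be samples of their own. Gene types and snoRNAs came from GENCODE M21, which matched 99.72% of genes.

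Genes were kept above 1 CPM in at least 2 of the libraries fitted. Comparisons within a method also needed an FPKM over the gene span of at least 1 in 1 library (at most 50000). For RiboTag this was instead at least 0.1 in 2 libraries. Contrasts between methods used no FPKM filter. Members were tested among all genes kept with edgeR's quasi-likelihood test (edgeR 4.0.16, TMM, R 4.3.3) and Benjamini-Hochberg adjustment. Within a method, a call needed an adjusted p up to 0.05, a log2 fold change beyond 0.38 in either direction and a mean count above the 25th percentile, and in nuclear libraries an SE below the 75th percentile. Contrasts between methods came from 6 group means of the libraries labelled male. The scripts were tested on simulated data. The Rpl22 ratio was compared by two-sided exact permutation tests over libraries (SciPy 1.17.1), adjusted over 8 pairs. Background was the count per kilobase of 1429 olfactory and vomeronasal genes. The limit for a count of 0 is 3 counts.

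The genes named are Rpl22, the paralogs Rpl3l, Rpl10l, Rpl39l and Rps27l, the stalk proteins and Rpsa, the 5 highest and 5 lowest per method, and up to 12 called members in each direction by smallest adjusted p; any other is named as chosen later. The members and lists were chosen with earlier results of these data known. Alternatives used DESeq2 1.42.0, other scalings and filters, and fewer libraries. Those that leave out libraries for their protein-coding share, background or Xist, and those that subtract background or snoRNA counts, were chosen after seeing the data. Column numbers of the whole cell D2, nuclear D2 and RiboTag female libraries are not tied to single samples by the labels. Each sample is from 1 animal by the labels. Total counts per library bound the precision, as the report gives. Some of the genes this rule names are not reported here.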

Additional observations from a re-analysis of the deposited data

Results flagged for a closer look

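Whole cell D2 number 1 lay farther from the other whole cell D2 libraries than Dixon's 95% limit allows in 3 measures. Its members took 0.185% of all counts (next highest 0.0704%) and 0.214% of protein-coding counts (next highest 0.107%), and Rpsa stood at 133 CPM (next highest 51.7). Of 88 groups of values examined in this way these 3 passed the limit, and chance passes about 1 in 20. Without this library, 8 members were called lower in whole cell D2.

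The D2 minus D1 difference differed between nuclear and whole cell libraries by the test of that difference (edgeR's quasi-likelihood test), lower in nuclear for 48 members and higher for 1, where 15.8% of all genes tested were lower and 6.12% higher. Without the libraries of low protein-coding share 7 were lower and 2 higher, and with library totals 4 were lower and 10 higher. Among the 12 lower members with the smallest adjusted p were Rpsa (-3.73), Rps3 (-3.31), Rpl23 (-3.09), Rps2 (-3.23), Rpl13a (-3.07), Rplp2 (-3.00), Rpl19 (-2.66), Rps6 (-2.49), Rplp1 (-3.50), Rpl36 (-3.30) and Rpl8 (-2.67), on the log2 scale. The member higher in nuclear was Rpl39l (4.53), which had 0 counts in 4 of 6 whole cell D2 libraries and in 3 of 6 nuclear D1 libraries. Nuclear D2 libraries had the high background given above.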

How the results depend on the processing

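Of 1305 values of named members under an alternative, 1180 kept their side of the threshold, 96 lost the call and 4 gained one. A further 25, listed below, changed direction with a call in the main or the alternative fit. The 1180 include any change of direction without a call in either fit. The cause was not tested. Where no share of all genes called stands beside a count under an alternative, here or above, the count does not set the members apart from other genes. Members called lower in nuclear D2 numbered 65 with no filter beyond 1 count, 5 and 0 without libraries of low protein-coding share or of high background, and 10 to 48 without 1 library. In whole cell libraries the calls numbered 10 with DESeq2, 15 with library totals, 0 without the FPKM filter, with no filter or over summed exons, 1 with background subtracted, 7 with the repeat run apart, 11 with the lanes apart, 1 and 13 without libraries of low protein-coding share or of high background, and 0 to 19 without 1 library. RiboTag gave 2 calls in male libraries by adjusted p alone (1 higher, 1 lower), and in female libraries 2 with library totals and 0 to 1 without 1 library.

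Of nuclear against whole cell D1, DESeq2 called 19 (17 higher, 2 lower) and background subtraction left 7 (5 higher, 2 lower). Library totals turned the direction to 52 calls (1 higher, 51 lower), and libraries of higher protein-coding share alone to 29 (1 higher, 28 lower). Library totals gave 74 calls (0 higher) for RiboTag against whole cell D1, 60 (3 higher, 57 lower) for D2 and 14 (10 higher, 4 lower) for the nuclear difference between cell types, which had 9 calls (2 higher, 7 lower) without libraries of low protein-coding share.

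Members that changed direction with library totals were, for nuclear against whole cell D1, Rps10 (-0.39), Rpl29 (-0.13), Rps4x (-0.32), Rplp1 (-0.14), Rpsa (-0.35) and Rps6 (-0.59), for RiboTag against whole cell D1, Rpl22 (-2.86), Rpl21 (-0.14), Rps6 (-0.40), Rpl7a (-0.78), Rps4x (-0.92), Rpl6 (-1.11), Rpl19 (-0.91), Rpl29 (-0.24), Rps23 (-0.60), Rpsa (-0.95) and Rpl7 (-1.04), and for D2, Rpl22 (-2.36) and Rpl6 (-0.19). Without libraries of low protein-coding share, those of nuclear against whole cell D1 were Rpl29 (-0.32), Rplp1 (-1.12), Rps27 (-0.72), Rpsa (-0.014) and Rps6 (-0.55), and with snoRNA counts subtracted, Rps3 (-0.98).

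The Rpl22 ratio between nuclear D2 and D1 was -0.37 over protein-coding counts, 1.05 without snoRNA counts, 0.88 without doubted libraries and 1.19 to 1.29 without 1 D2 library. Nuclear against whole cell D2 it was 0.67 without snoRNA counts. RiboTag against whole cell, it was -0.40 in D2 over protein-coding counts, and -0.96 in D1 and -1.12 in D2 without doubted libraries. Same-numbered RiboTag male libraries correlated by -0.03 to 0.13 and 1 of 6 correlated best with its own number, so they share a number only, and the fit with a replicate block called 0 members and changed no call. No such fit was made for female libraries. Depth limits RiboTag values of low members, such as Rps12 with 1 to 15 counts per male library.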
